A study of Homo sapiens with 12 samples.

Results

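The cyclins, cyclin-dependent kinases (CDKs) and mitotic genes described here are 42 genes chosen by name, among 54261 genes in a total RNA count table. They were compared between HCT116, a human colorectal carcinoma cell line, and HCT116oxR, a line selected from it with oxaliplatin, a platinum drug that forms DNA adducts. Parental HCT116 cells carried no selection. HCT116oxR cells were passaged in doses that began at 0.1 µmol/L and ended at 5 µmol/L for 1 year. Each line gave 3 total RNA and 3 small RNA libraries from cultures that the labels describe as grown and harvested independently. There is 1 resistant line and its parent, so the tests speak of these cultures and not of resistant lines in general. The sources used here do not say whether the drug was present at harvest.

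The cell division cycle is driven by CDKs, which are active only when bound to a cyclin. D-type cyclins with CDK4 and CDK6, then E-type cyclins with CDK2, take cells from G1 into S phase, largely by releasing the E2F transcription factors. Cyclin A2, with CDK2 and CDK1, and the B-type cyclins, with CDK1, then drive S phase, G2 and mitosis. The anaphase-promoting complex (APC/C) ends mitosis by marking securin and cyclins for destruction. mRNAs of mitotic genes normally peak in G2 and mitosis, and many of their promoters share CCAAT boxes and the cell cycle genes homology region (CHR). In bulk RNA a larger share of cells in a phase and more RNA per cell in that phase cannot be told apart.

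Of the 42 genes, 41 had enough counts to be tested, and CCND2, the gene of cyclin D2, was left out with counts of 0, 0 and 0 in HCT116 and of 1, 0 and 1 in HCT116oxR. In HCT116oxR 26 of the 41 were higher and 4 lower, and 11 did not pass (edgeR quasi-likelihood test, Benjamini-Hochberg adjusted p under 0.05 over all genes). That is 63.4% higher and 9.76% lower. Of all 17511 genes tested 44.1% passed, 22.3% higher and 21.8% lower. Their median log2 fold change was 0.30, against -0.00 over all genes tested. Of the 21 genes listed as S-phase and mitotic cyclins with CDK1, mitotic kinases and passenger genes, spindle checkpoint, APC/C and chromosome genes, 20 were higher and 0 lower (all 21 lay above 0). Of the 20 others, 6 were higher, 4 lower and 10 did not pass. These are 7 G1 cyclins and kinases (1 higher, 4 lower), CDC25 phosphatases with WEE1, CDK inhibitors and transcription factors, some of which also act in G2 and mitosis. No test compared the roles. Most of the changes were under 1.5-fold. Of the 41 genes 9 rose at least 1.5-fold, a larger share than the 9.54% of all genes that did. None, 0 of the 41, fell that far, against 7.52% of all genes. The genes were picked by function and with earlier results of these data known, so these counts are a description of the group.

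**Figure D1:**
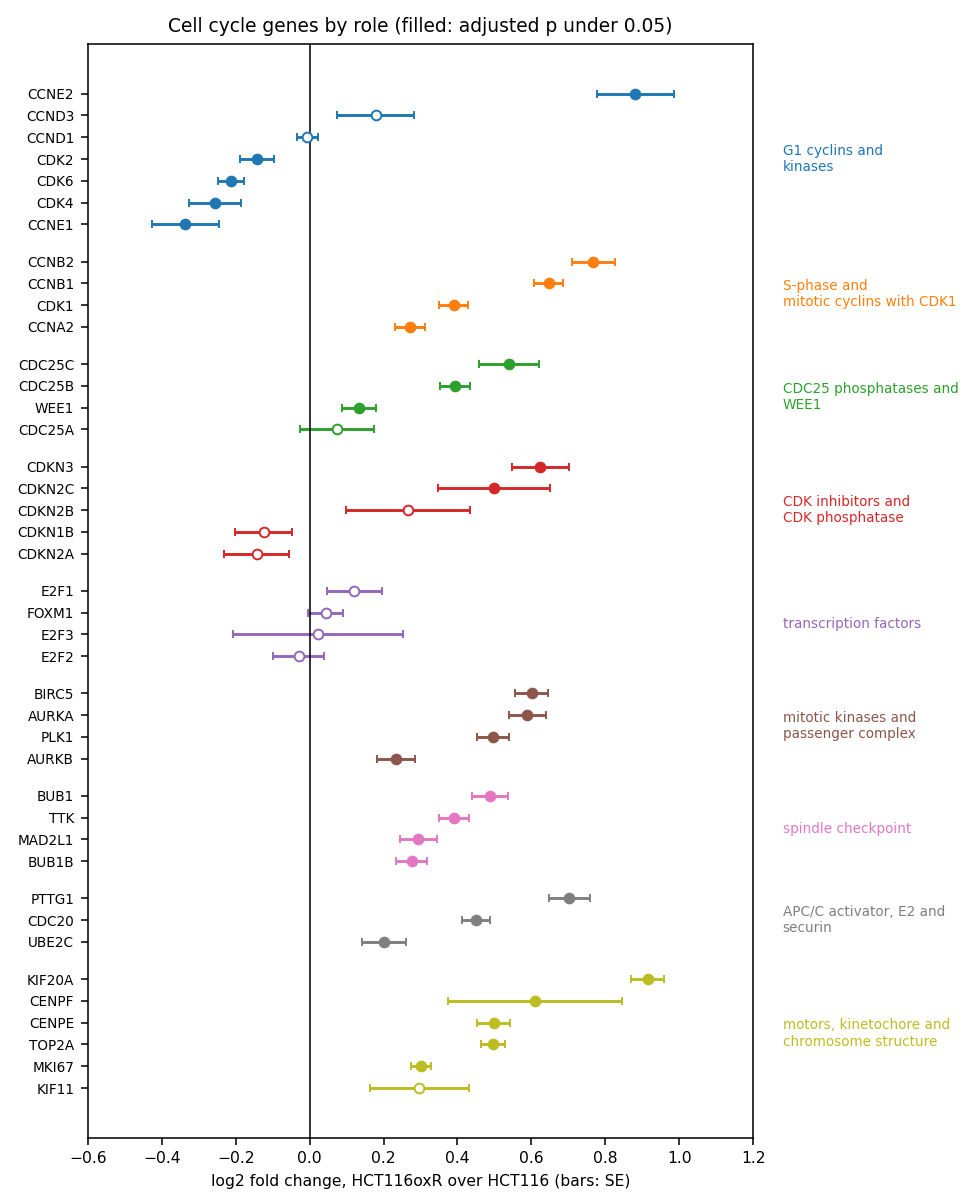
The log2 fold change of HCT116oxR over HCT116 (horizontal axis) for the 41 tested genes, grouped by role, with bars of 1 SE and filled points for an adjusted p under 0.05. The mitotic roles lie to the right of 0, at 0.20 to 0.91, while CDK2, CDK6, CDK4 and CCNE1 lie to the left.

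Libraries held 11950069 to 13558077 counts of total RNA, and levels are given as counts scaled to library size (CPM) with the trimmed mean of M values (TMM). Of the 10 colorectal epithelial markers EPCAM, KRT8, KRT18, KRT19, CDH1 and CDX2 were detected throughout, while CDX1, VIL1 and CDH17 had 0 to 2 counts in a library and LGALS4 had 1 to 13. The 10 summed to 3059 to 3169 CPM in parental libraries and 3700 to 3780 in HCT116oxR, with KRT8 (0.42) and KRT18 (0.53) higher by as much as many of the genes described here, and KRT19 lower (-0.13). The leukocyte markers PTPRC, CD3E, MS4A1 and NKG7 were at 0 in every library. The 8 leukocyte markers summed to 0.403 to 0.837 CPM in parental libraries and 0.369 to 1.19 in HCT116oxR. The 8 fibroblast markers summed to 55.1 to 68.2 and 46.7 to 51.8 CPM. COL1A1 made up most of that, at 51.0, 52.6 and 56.9 CPM against 42.1, 45.7 and 42.2. COL3A1, DCN, LUM, THY1 and FAP had 0 to 6 counts in a library. The 6 endothelial markers summed to 1.65 to 2.42 and 3.02 to 3.98 CPM. VWF had 20, 18 and 23 counts against 36, 42 and 29, and KDR 1, 3 and 4 against 18, 8 and 8. PECAM1 went the other way, with 1, 5 and 2 against 0, 0 and 0, and CDH5, CLDN5 and ERG had 0 or 1. The part of these differences in the results was not tested.

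Of the 7 tested G1 genes 4 fell, 2 did not pass and CCNE2 rose, where 21.8% of all genes tested were lower and 22.3% higher. CCND1, the gene of cyclin D1, stood at 1129, 1115 and 1125 CPM in the parental libraries and at 1112, 1132 and 1113 in HCT116oxR. These values overlap, and the log2 fold change was -0.01 with a 95% interval of -0.06 to 0.05 (adjusted p = 0.888). CCND3, the gene of cyclin D3, stood at 19.8, 22.7 and 24.04 CPM against 24.04, 26.3 and 24.8, a difference of 0.18 with an interval of -0.03 to 0.39 that did not pass (edgeR adjusted p = 0.161).

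The kinase partners were lower. CDK6, which binds D-type cyclins, fell from 329, 339.7 and 343 CPM to 284, 291 and 298, with every HCT116oxR library below every parental one (log2 fold change -0.21 ± 0.03, SE, n = 3 per line, edgeR adjusted p = 9.28e-08). CDK4, the other D-type cyclin kinase, fell from 55.6, 57.7 and 53.9 CPM to 43.7, 49.3 and 46.9 (-0.26 ± 0.07). It overlaps TSPAN31 in the annotation, which was lower too (-0.31 ± 0.13). CDK2, the partner of cyclins E and A, fell from 157, 154 and 155 to 138, 148 and 136 CPM (-0.14 ± 0.05), and that call was lost without HCT116oxR replicate 3 (-0.12, adjusted p = 0.0644). All 3 kinases had libraries that did not overlap between the lines, which held for 24.8% of all genes in that direction.

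The pair of E-type cyclins went opposite ways. CCNE1, the gene of cyclin E1 on chromosome 19, fell from 36.5, 37.8 and 32.8 CPM to 30.2, 26.2 and 28.4 (-0.34 ± 0.09, SE, edgeR adjusted p = 0.00105). CCNE2, the gene of cyclin E2 on chromosome 8, rose from 17.6, 15.98 and 16.6 CPM to 31.4, 30.96 and 30.1 (0.88 ± 0.10, adjusted p = 1.07e-12). The libraries of the lines did not overlap for either gene (24.8% of all genes tested lay wholly lower and 25.7% wholly higher). CCNE2 was the one gene of the G1 group to rise, and its neighbours on the chromosome rose with it. The 39 tested protein-coding genes within 5 Mb on each side had a median log2 fold change of 0.73, which leaves a difference of 0.15 between CCNE2 and its neighbourhood. It also overlaps INTS8, which rose by 0.52 ± 0.04.

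**Figure D2:**
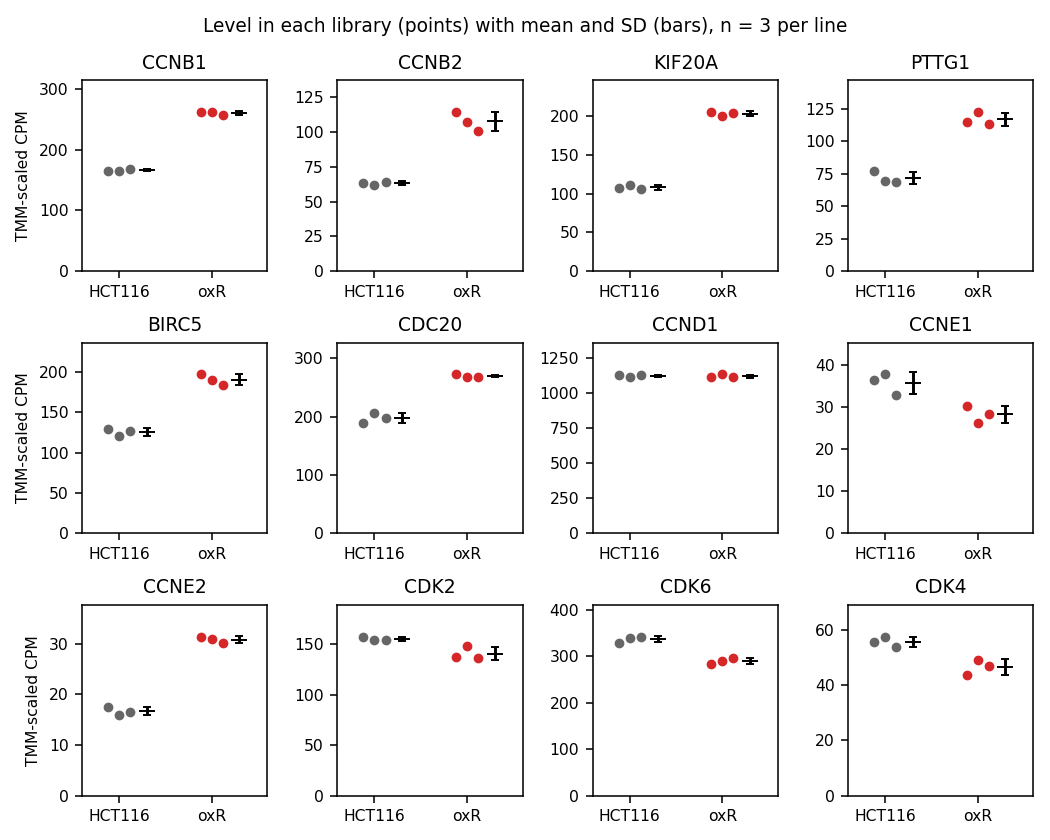
TMM-scaled CPM (vertical axes from 0) in each library for 12 genes, grey for HCT116 and red for HCT116oxR, with the mean and SD of 3 libraries beside the points. CCNB1, CCNB2, KIF20A, PTTG1, BIRC5, CDC20 and CCNE2 lie higher in every HCT116oxR library, CCND1 overlaps, and CCNE1, CDK2, CDK6 and CDK4 lie lower.

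The cyclins of S phase and mitosis and their kinase CDK1 all rose. CCNB1, the gene of cyclin B1, rose from 166, 165 and 169 CPM to 262, 262 and 258, which is 1.57-fold (0.65 ± 0.04, SE, n = 3 per line, edgeR adjusted p = 6.53e-31). CCNB2, the gene of cyclin B2, rose from 63.6, 61.9 and 64.3 CPM to 114, 108 and 101 (1.703-fold, 0.77 ± 0.06). CDK1, their kinase, rose from 209.9, 202 and 209.9 CPM to 286, 251 and 277 (0.39 ± 0.04). CCNA2, the gene of cyclin A2, rose from 173, 189.6 and 193 CPM to 229, 212 and 229 (0.27 ± 0.04). In all 4 every HCT116oxR library lay above every parental one, which was so for 25.7% of all genes tested. CCNA2 overlaps EXOSC9, which stood at -0.02 ± 0.06.

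Of the CDC25 phosphatases and WEE1, 3 of 4 rose, beside 22.3% of all genes tested. CDC25C, a phosphatase that removes inhibitory phosphates from CDK1, rose from 33.1, 32.6 and 30.4 CPM to 49.3, 44.9 and 45.5 (0.54 ± 0.08, SE). CDC25B, which starts CDK1 activation in G2, rose from 189, 181 and 200.2 CPM to 249.6, 258 and 242 (0.39 ± 0.04). CDC25A, which acts mainly at the entry into S phase, was at 23.5, 25.7 and 24.8 against 25.4, 27.6 and 24.9 CPM, a difference of 0.08 with an interval of -0.12 to 0.27. Its libraries overlap between the lines. WEE1, the kinase that places the inhibitory phosphate, rose from 129, 137 and 131 to 145, 143 and 147 CPM (0.13 ± 0.05, edgeR adjusted p = 0.0120), a call that was lost without parental replicate 1 (0.11, adjusted p = 0.0788). CDC25C overlaps FAM53C, which was lower (-0.28 ± 0.06).

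Of the 5 CDK inhibitor genes 2 were higher and 3 did not pass, where 22.3% of all genes tested were higher. So few genes do not set this role apart from that share. CDKN2C, an inhibitor of CDK4 and CDK6, rose from 8.38, 8.16 and 9.15 CPM to 11.4, 11.5 and 13.4 (0.50 ± 0.15, SE, edgeR adjusted p = 0.00403). CDKN3, a phosphatase that inactivates CDKs and whose own mRNA is cell cycle dependent, rose from 34.2, 35.7 and 32.5 to 52.7, 53.3 and 51.6 CPM (0.62 ± 0.08). For both genes every HCT116oxR library lay above every parental one, as for 25.7% of all genes tested. CDKN1B, an inhibitor of cyclin E with CDK2, was at 43.8, 52.98 and 45.6 against 40.8, 46.9 and 42.8 CPM (-0.12, interval -0.28 to 0.03). CDKN2A stood at -0.14 (interval -0.32 to 0.03) and CDKN2B at 0.27 (interval -0.06 to 0.60), and the libraries of all 3 overlapped between the lines. CDKN2A and CDKN2B are adjacent and overlap CDKN2B-AS1, so their reads may be shared.

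Of the 4 transcription factors that drive these programmes 0 passed, also with DESeq2, and 0 had an unadjusted p under 0.05. Over all genes tested 44.1% passed. E2F1, which activates genes of S phase, was at 42.5, 45.6 and 46.5 CPM in parental cells and 49.6, 49.6 and 46.9 in HCT116oxR (0.12, interval -0.03 to 0.27, edgeR adjusted p = 0.187). These E2F1 values do not overlap, with HCT116oxR higher as for 25.7% of all genes tested, but the gene did not pass. FOXM1, which activates mitotic genes, was at 134, 125 and 135 against 135, 136 and 134 CPM (0.04, interval -0.05 to 0.14, adjusted p = 0.485). For comparison, the interval of CCNB1 was 0.57 to 0.72. E2F2 stood at -0.03 (interval -0.17 to 0.11). E2F3, with 36 to 70 counts per library, stood at 0.02 with an interval of -0.43 to 0.48, so a change within that range was not detectable at this depth.

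The mitotic kinases and the chromosomal passenger gene were all higher. AURKA, which matures centrosomes and the spindle, rose from 96.2, 95.5 and 104 CPM to 155, 146 and 144 (1.504-fold, 0.59 ± 0.05, SE, edgeR adjusted p = 7.09e-21). PLK1, which acts from mitotic entry to exit and whose gene overlaps ERN2 (too few counts to be tested), rose from 141, 136 and 148 to 191, 205 and 204 CPM (0.50 ± 0.04). AURKB, the kinase of the passenger complex, rose from 94.2, 91.1 and 95.3 to 108, 110.0 and 112 CPM (0.23 ± 0.05). In each of them every HCT116oxR library lay above every parental one, as in 25.7% of all genes tested. BIRC5, the gene of survivin in the passenger complex, rose from 129, 120.3 and 127 CPM to 197, 191 and 183 (1.52-fold, 0.60 ± 0.04).

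Genes of the spindle checkpoint, which delays anaphase until chromosomes are attached, rose too. BUB1, a checkpoint kinase at kinetochores, rose from 109, 99.2 and 105 CPM to 155, 144 and 142 (0.49 ± 0.05, SE, edgeR adjusted p = 3.58e-16). TTK, the kinase that starts checkpoint signalling, rose by 0.39 ± 0.04, MAD2L1 by 0.29 ± 0.05 and BUB1B by 0.28 ± 0.04, and MAD2L1 and BUB1B encode parts of the complex that inhibits the APC/C. For all 4 every HCT116oxR library lay above every parental one, as for 25.7% of all genes tested. BUB1B shares its locus with the read-through gene BUB1B-PAK6, which had 96 to 167 counts per library.

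All 3 genes that act with the APC/C rose, beside 22.3% of all genes tested. PTTG1, the gene of securin, which holds separase inactive, rose from 77.4, 69.8 and 68.4 CPM to 115, 123 and 114 (1.63-fold, 0.70 ± 0.06, SE, edgeR adjusted p = 1.64e-22). CDC20, the APC/C activator in mitosis, rose from 189, 206 and 198 to 272, 268 and 268 CPM (0.45 ± 0.04). UBE2C, its ubiquitin-conjugating enzyme, rose from 74.3, 66.02 and 76.2 to 84.01, 85.1 and 79.9 CPM (0.20 ± 0.06). The call of UBE2C was lost without parental replicate 2 (0.14, adjusted p = 0.0806).

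The largest rise of all 42 genes was that of KIF20A, a kinesin of the central spindle and cytokinesis on chromosome 5. It rose from 107, 112 and 105 CPM to 205, 200.2 and 205, which is 1.89-fold (0.91 ± 0.04, SE, n = 3 per line, edgeR adjusted p = 2.32e-39). It overlaps CDC23, an APC/C subunit gene, which fell by 0.27 ± 0.06, and the median of 86 neighbours was -0.01. The overlapping gene thus went the other way, and the neighbourhood as a whole lay near 0.

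CENPE, a kinetochore motor, rose from 129, 137 and 122 to 178, 188 and 180.4 CPM (0.50 ± 0.04, SE). TOP2A, the topoisomerase that untangles chromosomes, rose from 389.9, 387 and 380.2 to 533, 547 and 552 CPM (0.50 ± 0.03). MKI67, the gene of the proliferation marker Ki-67, rose from 1020.1, 1019.9 and 1017 to 1254, 1260.0 and 1254 CPM (0.30 ± 0.03, edgeR adjusted p = 5.03e-19). For these 3 genes the spread within a line was far smaller than the difference. KIF11, the motor that separates spindle poles, was at 12.1, 11.4 and 12.3 against 13.5, 14.5 and 16.1 CPM, which do not overlap but did not pass (0.30 ± 0.13, adjusted p = 0.0640). It passed with upper-quartile scaling (0.32, adjusted p = 0.0423) and without HCT116oxR replicate 1 (0.36, adjusted p = 0.0450). CENPF, a kinetochore protein gene, had 57, 35 and 37 parental and 82, 73 and 51 HCT116oxR counts, which overlap. Its log2 fold change was 0.61 ± 0.24 (edgeR adjusted p = 0.0272). DESeq2 did not call CENPF (0.61, adjusted p = 0.0671). Nor did edgeR without parental replicate 2 or 3 or without HCT116oxR replicate 1 or 2 (0.49 to 0.58).

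Ratios of a pair of these genes inside a library do not depend on how libraries are scaled, and 14 pairs were compared. The ratio was higher in every HCT116oxR library than in every parental one for 9 pairs, lower for 1, and overlapping for 4. With 3 libraries against 3 the exact 2-sided permutation test cannot go below 0.1, which was the p of those 10 pairs (0.140 adjusted over the 14 pairs), so none passed. They are ratios of counts, so they do not compare molecules of genes of different length.

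Of 4 ratios of a cyclin to its kinase 3 were higher without overlap and 1 overlapped. The count ratio of CCNB1 to CDK1 was 0.789, 0.818 and 0.804 in parental libraries and 0.916, 1.044 and 0.929 in HCT116oxR. That of CCNB2 to CDK1 was 0.303, 0.307 and 0.306 against 0.399, 0.428 and 0.365. That of CCNA2 to CDK2 was 1.099, 1.23 and 1.25 against 1.66, 1.43 and 1.69. The log2 differences of these 3 were 0.26, 0.38 and 0.41. The ratio of CCNE1 to CDK2 lay the other way (log2 difference -0.19, exact permutation p = 0.2), and its libraries overlapped.

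The count ratio of CCNE2 to CCNE1 went from 0.481, 0.423 and 0.506 to 1.04, 1.18 and 1.06, so that counts of CCNE2 came to exceed those of CCNE1. The ratio of CDC25C to WEE1 was 0.258, 0.239 and 0.232 against 0.339, 0.315 and 0.310, and that of CDC25B to WEE1 was higher by 0.26 on the log2 scale. The ratios of BIRC5 to AURKB, PTTG1 to CDC20 and TOP2A to MKI67 were higher by 0.37, 0.26 and 0.19. The ratio of CCND1 to CCND3 was lower by a narrow margin, at 57.1, 49.1 and 46.8 against 46.2, 43.0 and 44.8. Its log2 difference was -0.19, and -0.10 without parental replicate 1. The ratios of CDK4 to CDK6, CDKN1B to CDK2 and E2F1 to E2F3 overlapped between the lines.

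**Figure D3:**
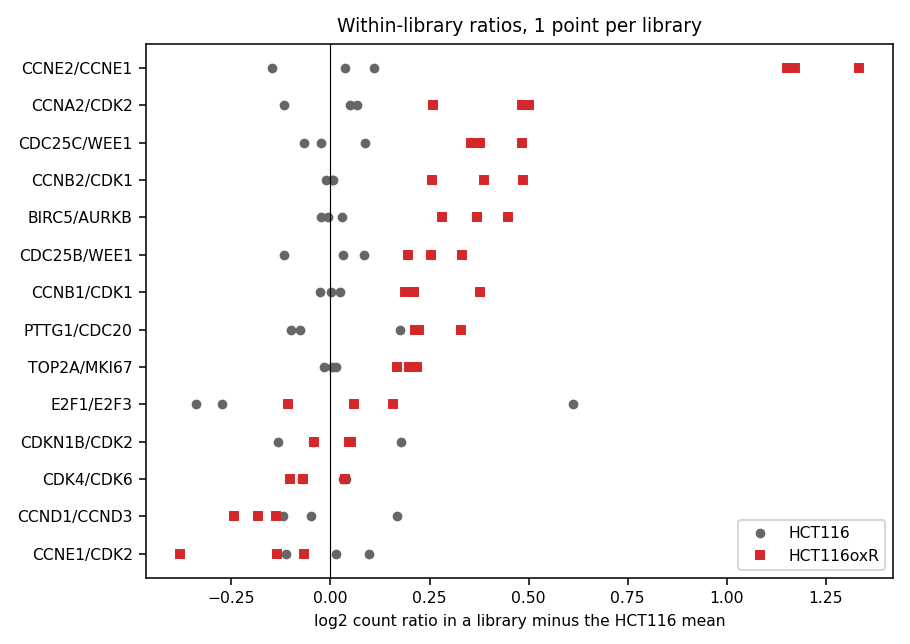
The log2 ratio of counts of 2 genes in each library minus the parental mean (horizontal axis), for 14 pairs, with grey circles for the 3 HCT116 and red squares for the 3 HCT116oxR libraries. CCNE2 over CCNE1 moved most (1.22), and the libraries of the lines overlap for E2F1 over E2F3, CDKN1B over CDK2, CDK4 over CDK6 and CCNE1 over CDK2.

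As a gene can share a shift with its stretch of chromosome, as at CCNE2, each gene was set beside the tested protein-coding genes within 5 Mb. For 4 of the 41 genes the median of the neighbours was at least 0.2 from 0 on the log2 scale. Besides CCNE2 these were BIRC5 (neighbours 0.23, gene 0.60), CDKN1B (neighbours 0.23, gene -0.12) and CDKN2A (neighbours 0.22, gene -0.14). Of them only CCNE2 and BIRC5 passed the test, and BIRC5 lay 0.38 above its neighbours. AURKB rose where its 128 neighbours had a median of -0.18, and UBE2C rose beside a median of -0.13. For CCNB1, CCNB2, PLK1, CDC20, TOP2A and KIF20A the neighbours lay between -0.05 and 0.06. With a window of 2 Mb the count was 8 genes, among them CDK1 (neighbours 0.75, gene 0.39), and with 10 Mb it was 4.

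**Figure D4:**
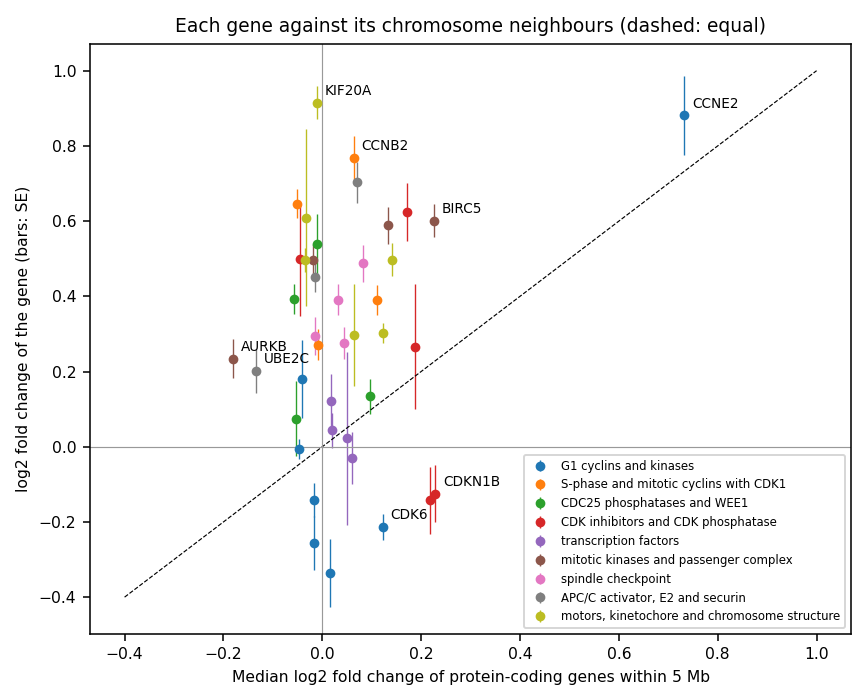
The log2 fold change of each of the 41 genes with 1 SE (vertical axis) against the median of the tested protein-coding genes within 5 Mb on each side (horizontal axis), coloured by role, with a dashed line of equality. CCNE2 lies near the line at a median of 0.73, while most mitotic genes lie above it at medians near 0.

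The promoters of these genes were searched for letters known from cell cycle promoters. RefSeq promoters of GRCh38.p14, from 250 bases before to 50 after the annotated start, were found for 32 of the 42 genes. The motifs were CHR (TTTGAA), the CCAAT box (CCAAT) and E2F-type letters (TTCCCGC or TTCGCGC or TTGCCGC or TTGGCGC), on either strand. They were counted separately, and no motif is part of another. A match is a description of the letters and does not show that a factor binds there.

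CHR letters were in 12 of the 32 promoters (37.5%, exact binomial 95% interval 21.1% to 56.3%), against 15.2% of all 35116 promoters of that length and 10.02% of those of tested genes. CCAAT letters were in 20 (62.5%, interval 43.7% to 78.9%), against 34.6% of all promoters and 36.7% of those of tested genes. E2F-type letters were in 9 (28.1%, interval 13.7% to 46.7%), against 12.97% and 20.01%. The genes were picked by function, from a class known to share CHR and CCAAT letters, and are no random draw. The shares and intervals thus describe this list and do not test for enrichment. Of the 17 promoters from the 21 genes of the S-phase and mitotic roles 10 held CHR, 15 CCAAT and 3 E2F-type letters. Of the 15 others 2, 5 and 6 did, and the groups were not tested against each other. In all 8 promoters held none of the motifs in this window, those of CDK4, CDK6 and CCNE1, which fell, of CDKN2C and CENPE, which rose, and of CCND3, CDKN2A and CDKN2B, which did not pass.

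Across the whole table the shares differed little with the direction of change. CHR letters were in 10.7% of promoters of all genes called higher, 9.05% of those called lower and 10.2% of those that did not pass. CCAAT letters were in 36.4%, 37.8% and 36.4%.

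The promoters printed here belong to genes that rose and show the arrangement of the motifs. They are the genes with CHR letters and the largest changes, CENPF left out because its letters lie after the start. Each line gives the 250 bases before the start, 5′ to 3′ on GRCh38.p14 from RefSeq, with CHR and CCAAT letters of either strand in capitals.
CCNB2, chr15:59104896-59105145, plus strand: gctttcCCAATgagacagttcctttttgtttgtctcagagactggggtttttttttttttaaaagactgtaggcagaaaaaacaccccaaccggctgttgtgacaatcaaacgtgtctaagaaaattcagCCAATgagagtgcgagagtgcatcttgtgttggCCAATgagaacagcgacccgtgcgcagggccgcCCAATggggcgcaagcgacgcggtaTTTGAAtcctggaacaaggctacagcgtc
CDKN3, chr14:54396757-54397006, plus strand: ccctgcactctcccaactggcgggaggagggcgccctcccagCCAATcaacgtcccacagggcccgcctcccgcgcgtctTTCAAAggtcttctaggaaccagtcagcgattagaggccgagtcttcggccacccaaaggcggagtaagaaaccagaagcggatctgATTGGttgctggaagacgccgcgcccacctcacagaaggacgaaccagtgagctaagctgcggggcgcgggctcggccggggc
PLK1, chr16:23678639-23678888, plus strand: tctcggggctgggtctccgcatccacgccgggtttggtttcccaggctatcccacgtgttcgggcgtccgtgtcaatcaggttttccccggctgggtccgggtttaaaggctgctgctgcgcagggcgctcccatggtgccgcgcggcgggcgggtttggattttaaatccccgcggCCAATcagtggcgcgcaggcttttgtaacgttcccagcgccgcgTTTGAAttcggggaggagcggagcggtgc

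The CCNB2 promoter holds 4 CCAAT boxes, the first bases of which lie at -244, -120, -87 and -54 from the start, and CHR letters at -29. The last 3 boxes are evenly spaced, and CHR follows them. The PLK1 promoter has the same order with 1 CCAAT box, at -73, and CHR letters at -29 as well. In CDKN3 the CHR letters are on the other strand and farther away, at -170, between CCAAT letters at -208 and -83. CDC20 (-65), MKI67 (-47 and -29) and BUB1B (-23), which rose, also held CHR letters near the start. So did KIF11 (-28, on the other strand) and E2F3 (-65), which did not pass. By contrast CCNB1, KIF20A and PTTG1, which rose, held CCAAT but no CHR letters in this window.

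**Figure D5:**
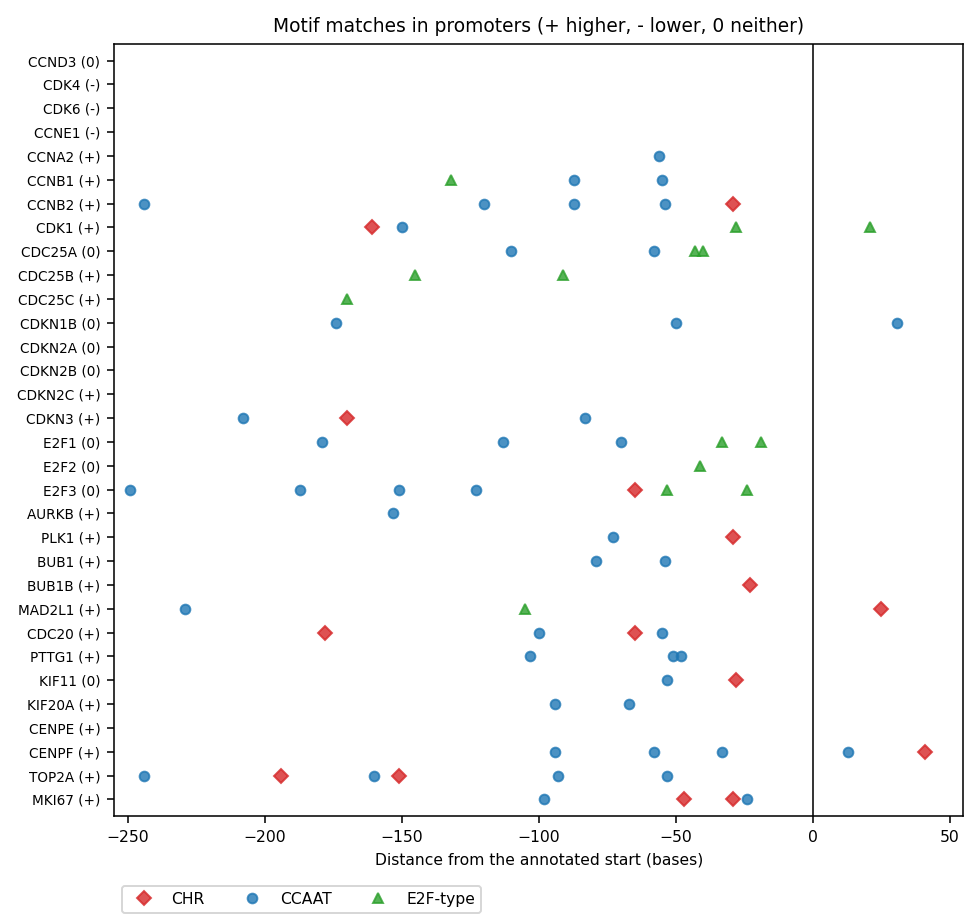
Distance from the annotated start in bases (horizontal axis) of each CHR (red diamonds), CCAAT (blue circles) and E2F-type match (green triangles) in the 32 promoters, ordered by role, with + for genes higher, - for lower and 0 for neither. CCAAT and CHR matches lie mostly in the rows of mitotic genes (15 and 10 of 17 promoters), and 8 rows are empty, among them those of CDK4, CDK6 and CCNE1 (lower) and of CDKN2C and CENPE (higher).

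Other genes of the cell cycle were counted in 7 lists outside the 42, which were not tested against each other or against all genes (22.3% higher, 21.8% lower). Among spindle motors, centrosome and cytokinesis genes 21 of 25 tested rose and 0 fell, with a median log2 fold change of 0.28. HMMR, a spindle protein gene, rose from 103 ± 1.55 to 179.8 ± 4.06 CPM (mean ± SD, n = 3, log2 0.80 ± 0.05, SE), and the kinesin gene KIF14 rose by 0.72 ± 0.04. The other 4 also lay above 0 but did not pass. With DESeq2 and limma voom 21 rose and 0 fell as well.

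Of 31 tested replication licensing and S-phase genes 13 fell and 4 rose, while 14 stayed under the threshold (median -0.10). RFC5, a clamp loader subunit, fell from 142 ± 8.33 to 114 ± 0.593 CPM (-0.31 ± 0.05, SE), and GINS3, of the replicative helicase, fell by 0.32 ± 0.09. DBF4, the activator of the kinase CDC7 that fires origins, rose by 0.29 ± 0.05. POLE2, a subunit of polymerase epsilon, rose by 0.27 ± 0.07 beside neighbours at 0.19. No gene of this list changed 1.5-fold.

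In the RB, E2F and DREAM list 6 of 16 fell and 2 rose (median -0.11). MYBL2, which binds the same mitotic promoters as part of the MuvB complex, fell from 173 ± 11.5 to 130.0 ± 7.91 CPM (-0.41 ± 0.05, SE), and LIN52, a MuvB subunit, fell by 0.76 ± 0.21. E2F8, a repressor, rose by 0.34 ± 0.07. E2F5 rose by 1.05 ± 0.11 on chromosome 8, where its neighbours had a median of 0.52.

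Kinetochore, passenger and checkpoint genes were mixed, with 12 of 30 higher and 8 lower (median 0.04). SGO2, which protects cohesin at centromeres, rose by 0.81 ± 0.05 (SE) and CENPH by 0.73 ± 0.10. MAD1L1, the kinetochore partner of MAD2L1, fell by 0.69 ± 0.15, against the direction of MAD2L1, and the histone kinase gene haspin (GSG2) fell by 0.45 ± 0.07 with neighbours at -0.28. The number of falls was 5 with DESeq2, and 5 without parental replicate 2 or without HCT116oxR replicate 2.

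Of 22 APC/C and SCF ligase genes 6 rose and 5 fell (median -0.00). UBE2S, the enzyme that extends ubiquitin chains for the APC/C, rose by 0.71 ± 0.05 (SE) from 73.1 ± 4.18 to 119 ± 3.98 CPM. ANAPC11 rose by 0.48 ± 0.10 beside neighbours at 0.20. ANAPC2 fell by 0.55 ± 0.06 and CDC26 by 0.38 ± 0.13, both on chromosome 9 with neighbours at -0.34 and -0.43. The call of CDC26 was lost without parental replicate 1 (-0.34) or HCT116oxR replicate 2 (-0.33). The count of falls was 3 without parental replicate 1 or HCT116oxR replicate 3.

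Of 14 further cyclins, CDKs and their regulators 6 rose and 3 fell (median 0.23). The inhibitor genes CDKN1C and CDKN2D rose by 0.99 ± 0.17 and 0.74 ± 0.19 (SE), and CDKN1A fell by 0.38 ± 0.04. PKMYT1, the membrane kinase that inhibits CDK1, fell by 0.27 ± 0.07. Of 19 cohesin, condensin and separase genes 6 rose and 3 fell (median 0.03). SMC4, a condensin subunit, rose by 0.49 ± 0.06, while its partner SMC2 fell by 0.17 ± 0.05 beside neighbours at -0.40. The extremes of this list, RAD21 (0.95 ± 0.03) and NCAPH2 (-1.14 ± 0.05), lay beside neighbours at 0.69 and -0.87.

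Small RNA of the same lines gave a second readout, for miRNAs known to repress these genes. Of 31 such miRNAs 30 were tested, and 9 were higher and 13 lower (edgeR, adjusted over 975 miRNAs), where 44.7% of all miRNAs tested passed, 23.5% higher and 21.2% lower. The number lower was 8 without parental replicate 1 or 3 and 7 without HCT116oxR replicate 2. The miRNAs with the clearest changes are shown in 3 seed groups, with the seed (bases 2 to 8), which pairs with targets, in capitals. The sequences are RefSeq mature forms.
let-7i-5p: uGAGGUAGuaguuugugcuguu
let-7f-5p: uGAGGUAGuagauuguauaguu
miR-15a-5p: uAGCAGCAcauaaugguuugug
miR-424-5p: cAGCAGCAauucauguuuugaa
miR-17-5p: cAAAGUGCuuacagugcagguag
miR-20a-5p: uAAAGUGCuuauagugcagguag
miR-93-5p: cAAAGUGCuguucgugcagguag

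The let-7 family, which is known to repress CDC25A, CDK6 and CCND2, was mixed. let-7i-5p fell from 48469, 48618 and 46809 CPM to 20166, 21847 and 23771 (log2 fold change -1.13 ± 0.06, SE, edgeR adjusted p = 1.45e-08) and let-7f-5p by 0.58 ± 0.05, while let-7e-5p rose by 0.44 ± 0.05. let-7d-5p (-0.20) and let-7a-5p (-0.11) were lower too, with calls lost in several alternatives, and the other members did not pass. The let-7 sequences differ by few bases, so reads may be shared. Of these targets CDK6 fell, CDC25A did not pass and CCND2 had too few counts.

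The miR-15 and miR-16 family represses CCND1, CCNE1 and WEE1. miR-15a-5p fell from 46.4, 45.95 and 44.4 CPM to 23.3, 25.9 and 26.6 (-0.85 ± 0.09, SE), miR-424-5p by 1.24 ± 0.14 and miR-503-5p, with a seed that differs at its last base, by 0.70 ± 0.11. The calls of miR-15b-5p (-0.26), miR-195-5p (-0.62) and miR-497-5p (-0.44) were lost in several alternatives, and miR-16-5p did not pass (-0.13 ± 0.06, adjusted p = 0.0823). Of these targets CCND1 did not pass, CCNE1 fell and WEE1 rose.

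The miR-17 family, which represses E2F1, rose in 5 of 6 members, where 23.5% of all miRNAs tested were higher. miR-17-5p rose from 2863, 3024 and 2921 to 4603, 4582 and 4689 CPM (0.66 ± 0.04, SE), miR-20a-5p by 0.56 ± 0.04, miR-93-5p by 0.52 ± 0.05, miR-106a-5p by 0.57 ± 0.08 and miR-20b-5p by 0.65 ± 0.11. miR-106a-5p (mean 68.3 CPM in parental libraries) differs from miR-17-5p only at its first base, and miR-20b-5p (mean 13.8 CPM) is close in sequence to miR-20a-5p. Reads may be shared here too, so these rises may not be separate. E2F1 mRNA did not pass in either direction, as given above.

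Of the others, miR-222-3p, which represses CDKN1B, rose by 0.46 ± 0.07 (SE), whereas miR-221-3p of the same seed stood at 0.02 ± 0.05. miR-24-3p fell by 0.35 ± 0.05, miR-34a-5p by 0.23 ± 0.06, miR-449a by 0.78 ± 0.17, let-7d-5p by 0.20 ± 0.06 and let-7a-5p by 0.11 ± 0.04. miR-34c-5p rose by 0.42 ± 0.12 and miR-26a-5p by 0.21 ± 0.05. The calls of let-7a-5p and let-7d-5p were lost in several alternatives, that of miR-34a-5p without HCT116oxR replicate 2 (-0.18), and that of miR-26a-5p with upper-quartile scaling (0.11). The part of any miRNA in the mRNA levels was not tested.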

How the data were processed

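The authors deposited raw counts, as 1 gene table (total RNA, 54261 rows) and 1 table of 2588 mature miRNAs. Per the submitters' processing notes, HISAT2 aligned the total RNA reads and BWA the small RNA reads, both against GRCh38. The sources used here name no version, counting tool, annotation, strand setting or rule for multiple matches, so overlapping genes and close copies may share reads. Total RNA libraries held 11950069 to 13558077 counts and small RNA libraries 16089595 to 18147051. Replicates differed by more than sampling noise, and small RNA libraries more than total RNA ones. Between replicates of a line the chi-square per degree of freedom was 2.21 to 3.01 for total RNA. For small RNA it was 5.40 to 9.61 in HCT116 and 20.8 to 67.9 in HCT116oxR. The common biological coefficient of variation in edgeR was 4.77% for genes and 12.4% for miRNAs.

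Tests used edgeR 4.0.16 (R 4.3.3): filterByExpr with minimum counts of 10 and, summed, 15, TMM factors, and the robust quasi-likelihood F test, 2-sided. P-values were Benjamini-Hochberg adjusted over 17511 genes or 975 miRNAs, with a threshold of 0.05. Fold changes are log2 HCT116oxR over HCT116, and the SE is their size over the square root of F. Alternatives were other scaling and filters, DESeq2 1.42.0, limma 3.58.1 voom, a fit without the robust option, a replicate block and leaving out each library. All 42 genes and all miRNAs past the threshold are named. Each pathway list gives its 2 largest rises and 2 largest falls past the threshold, among genes whose lines do not overlap and whose mean log2 CPM reaches 2. Positions come from RefSeq (GRCh38.p14), matched for 51511 genes. Genes and lists were chosen with earlier results of these data known.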

Additional observations from a re-analysis of the deposited data

How the results depend on the processing

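Of the 41 tested genes 38 kept their sign under every alternative run, and 39 to 41 kept their side of the threshold in each. The 3 others were never past it. CCND1 was 0.02 with upper-quartile factors and 0.000324 without HCT116oxR replicate 1, E2F2 was 0.03 without HCT116oxR replicate 1, and E2F3 was -0.26 without parental replicate 1 and -0.07 without HCT116oxR replicate 2. Over scaling, filter, test and block the number higher was 25 to 27 of 41 and the number lower 4, and leaving out 1 library gave 24 to 26 and 3 to 4. Counting changes of at least 1.5-fold gave 9 and 0. In an alternative chosen after seeing the data, the genes that overlap no other protein-coding gene had 20 higher and 3 lower of 32. The median log2 fold change of the 41 genes was 0.30, 0.32 with upper-quartile factors, and 0.27 to 0.35 without 1 library. DESeq2 called 5 kinetochore genes lower in place of 8, and leaving out 1 library gave 5 to 8 there (lowest without parental or HCT116oxR replicate 2). Falls among APC/C and SCF genes were then 3 to 5. The miRNAs called lower were 13, 8 without the low-count filter, and 7 to 14 without 1 library (7 without HCT116oxR replicate 2, 8 without parental replicate 1 or 3). With neighbours within 2 Mb, 8 genes in place of 4 lay in a shifted neighbourhood, and the cause was not tested. The log2 ratio of E2F1 to E2F3 was 0.04 and turned negative without parental replicate 2 (-0.13) or 3 (-0.10) or HCT116oxR replicate 1 (-0.02), over a range of -0.13 to 0.34. That of CDKN1B to CDK2 was 0.02, and -0.0475 and -0.00339 without parental replicates 1 and 3, over a range of -0.0475 to 0.11. Same-numbered total RNA libraries did not deviate together (correlations of 0.0152, -0.0352 and -0.0314), beside -0.0395 to 0.0693 for other-numbered ones. With 3 libraries per line this does not show whether libraries of the same number shared a date or handling. The replicate block gave 26 higher and 4 lower of the 41 genes and a median of 0.30, and 11 in place of 13 miRNAs lower. Genes with few counts, such as CENPF, E2F3 and CDKN2B, are limited by depth.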

Other observations

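Near copies of these genes in the count table could share reads with them, and their own counts were low. The pseudogene CDC20P1 had 23, 25 and 15 counts in parental libraries and 46, 53 and 23 in HCT116oxR, beside 2446 to 3693 for CDC20. MAD2L1P1 had 78, 50 and 67 against 72, 44 and 32, while MAD2L1 was higher in HCT116oxR. UBE2CP5 had 67, 73 and 57 against 44, 56 and 34, the opposite direction to UBE2C. PTTG2, a close relative of PTTG1, had 4, 4 and 2 against 14, 17 and 5, and the copy PTTG3P was at 0 in every library.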
